A study of Drosophila melanogaster with 3 samples.

Results

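The genes described here carry out sterol regulatory element-binding protein (SREBP) processing and the first steps of fatty acid synthesis in Drosophila melanogaster. They are 6 of the 13945 protein-coding genes on the chromosome arms of the dm6 build: SREBP, SCAP, S1P, S2P, ACC and FASN1. They were chosen by pathway and by peak signal, the SREBP promoter being among the strongest peaks of the thresholded list, so peak heights at these genes are given as a description and without a test. All 3 samples were mixed-sex whole embryos collected from 0 to 24 hours, from a transgenic line that stably carried CG15514 fused to eGFP at its C-terminal end. The 3 samples were biological replicates of this 1 genotype, untreated as far as the labels say. There was no second genotype, stage or treatment, and the labels give neither the promoter of the transgene nor the state of the native CG15514 gene. Chromatin sheared to 200 to 800 bp was precipitated with an antibody against GFP and sequenced (ChIP-seq), so peaks are stretches of DNA enriched together with CG15514-eGFP. A peak height from whole embryos cannot separate the number of cells bound from the amount bound in each cell.

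SREBP is a transcription factor that is made as a precursor in the membrane of the endoplasmic reticulum. SCAP escorts it to the Golgi in COPII-coated vesicles, where the proteases S1P and S2P cut it in turn and release the part that enters the nucleus. In flies, which cannot make sterols, released SREBP is known for driving fatty acid and phospholipid synthesis, with acetyl-CoA carboxylase (ACC) and fatty acid synthase (FASN1) among its targets, and membrane phosphatidylethanolamine restrains its processing.

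The authors deposited 1 list of 30000 entries for each replicate, 1 list of 30000 entries for the pooled replicates, and a thresholded list of 8708 peaks kept for reproducible rank. Each entry has a position, a summit and a signal, which is the height assigned by the peak caller and has no scale shared between lists. The median signal of the 8708 strongest entries was 55.62, 57.22 and 130.7 in replicates 1, 2 and 3, and 236.4 in the thresholded list. Signals were therefore compared only within a list, as ranks or as multiples of that median. Read counts are not part of these lists, and the depth of each sample is therefore unknown.

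A sequence common at the strongest peaks lies just before the transcription start site (TSS) of SREBP, and not before those of FASN1 and S1P, which are shown beside it. The sequence is GAACCAG or GAACTAG, on either strand, and its 10-base extended form is an inverted repeat: GAAC, a pyrimidine, a purine and GTTC. Shown first are the 120 bases before the annotated start of SREBP, FASN1 and S1P, read in the direction of the gene from the NCBI RefSeq Release 6 genome, the sequence of dm6. They are chr3L:19793815-19793934 (plus strand), chr2L:3056478-3056597 (plus strand) and chr3L:21617377-21617496 (minus strand). Capitals mark the 10-base inverted repeat and CAGCTG, an E-box. SREBP holds both, FASN1 neither, and S1P only CAGCTG.
SREBP: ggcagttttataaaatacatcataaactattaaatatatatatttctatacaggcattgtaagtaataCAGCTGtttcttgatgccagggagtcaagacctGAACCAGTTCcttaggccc
FASN1: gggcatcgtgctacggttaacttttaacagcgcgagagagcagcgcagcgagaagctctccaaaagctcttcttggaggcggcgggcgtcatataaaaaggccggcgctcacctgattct
S1P: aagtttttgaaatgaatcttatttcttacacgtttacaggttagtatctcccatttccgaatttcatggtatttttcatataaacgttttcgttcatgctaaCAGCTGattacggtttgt
GC made up 35% of the SREBP stretch, 55.8% of that of FASN1 and 31.7% of that of S1P. None of the 3 stretches overlaps an annotated exon.

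Of the 6 peaks ranked next to SREBP, 5 carry these 7 bases in varied surroundings, and they are shown to place the SREBP match among its equals. Capitals mark the 10-base inverted repeat, or the 7 bases where the repeat is incomplete, with 7 bases on each side. The matches lie at chr3L:1536820-1536843 (plus strand), chr2L:19584218-19584238 (minus strand), chrX:1393015-1393038 (plus strand), chr3L:19793909-19793932 (plus strand), chr3L:11697014-11697034 (plus strand) and chr3R:30022832-30022855 (plus strand).
CG12091: cggttcaGAACTGGTTCggtgctg
CG10366: ggagccgGAACCAGtgttgca
Rilpl: catctggGAACTGGTTCgcacata
SREBP: aagacctGAACCAGTTCcttaggc
Dph1: gagcaaaGAACTAGaagcagt
Axn: agctatcGAACCAGTTCgatttcg
The inverted repeat was complete at CG12091, Rilpl, SREBP and Axn. At CG10366 and Dph1 only the 7 bases matched, and at Polr1B, rank 8, neither form lay within 100 bp of the summit. The match shown is the complete repeat nearest the summit, or the nearest 7 bases where there is no complete repeat. It was 65 bp from the summit at SREBP and 85 bp at CG12091. At CG10366, Rilpl, Dph1 and Axn it was 47, 17, 0 and 37 bp. CG12091 held 3 matches to the 7 bases near its summit, and CG10366 and Rilpl 2 each, so other matches there are not shown.

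Across the 6 genes, the tagged protein marked the promoters of SREBP and SCAP heavily, those of ACC and FASN1 at a level typical of the list or below it, and those of S1P and S2P not at all past the threshold. A thresholded summit lay within 500 bp of a TSS of 4 of the 6 genes, where 42.9% of all protein-coding genes had one. The same 4 genes were those with any summit in the gene or 2 kb around it, where the share of all protein-coding genes was 59.1%. Only SREBP and SCAP, 2 of the 6, had 1 of the 100 strongest summits at a promoter, against 1.1% of protein-coding genes. The limit of 100 was set after the heights were seen, and SREBP was chosen for its height, so nothing is read from that count.

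The 6 genes and their 2 kb flanks held 9 of the 8708 thresholded summits: 1 at SREBP, 3 at SCAP, 3 at ACC and 2 at FASN1. Of the 9 summits, 7 were matched within 100 bp in all 3 replicates, counting the 8708 strongest entries of each, as were 64.2% of all thresholded summits. The remaining pair were both at FASN1. The heights fell into widely separated ranges, with SREBP and SCAP on the upper shoulder of the curve of signal over rank and the other 7 summits between ranks 2850 and 6960.

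**Figure D1:**
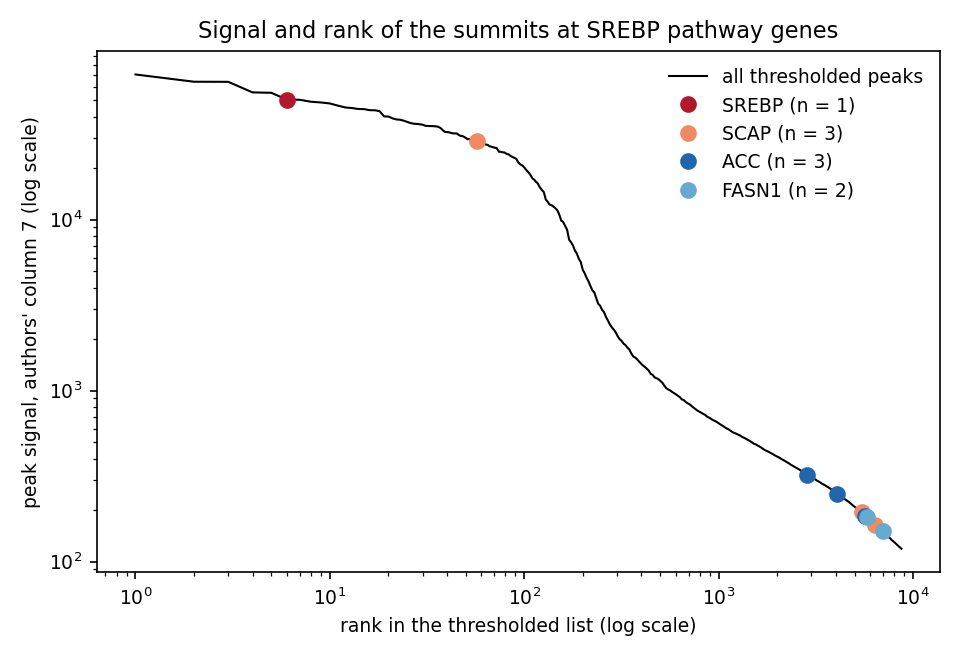
Peak signal (vertical axis, authors' column 7, no unit, log scale) against rank (horizontal axis, log scale) for the thresholded list, drawn as a line through a thinned set of ranks, with the 9 summits at the pathway genes as coloured points. The SREBP promoter (rank 6) and the SCAP promoter (rank 57) sit on the upper shoulder, and the other 7 summits lie between ranks 2850 and 6960.

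SREBP (FBgn0261283) lies on chr3L from 19793935 to 19798979 on the plus strand, with a single annotated TSS, and hosts the microRNA gene mir-33 within its body. The thresholded peak ran from 19793324 to 19794616, a width of 1293 bp against a list median of 424 bp. Its summit at 19793851 was intergenic, 84 bp upstream of the TSS. The thresholded signal was 50354, rank 6 of 8708, and 213 times the list median. The replicate signals were 12623, 11674 and 26026 in replicates 1, 2 and 3, at ranks 11, 6 and 6. Set over the median of each list these were 227, 204 and 199, a mean of 210 ± 14.8 (SD, n = 3). The 3 replicates thus placed this promoter within 5 ranks of each other. Their summits were 7, 10 and 10 bp from the thresholded summit.

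The SREBP peak stands in a divergent promoter and cannot be given to SREBP alone. CG42637 and Gyc76C, a receptor guanylyl cyclase gene, share a start site on the minus strand, 366 bp from the SREBP start. The summit was 282 bp from that site and 84 bp from the SREBP start, so it was nearer to SREBP. The body of SREBP held no thresholded summit, including the stretch around mir-33. The pooled list had 2 entries in coding exons at 1600 and 1897 bp past the start, with signals of 37.23 and 36.16 and ranks of 27916 and 28846, far past the last thresholded rank of 8708. The nearest thresholded summit outside the window was 2031 bp upstream of the gene, with a signal of 184.1.

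SCAP (FBgn0033052), the escort of SREBP, lies on chr2R from 6026273 to 6036388 on the minus strand, also with 1 annotated TSS. Its promoter peak ran from 6035769 to 6037072, a width of 1304 bp, with an intergenic summit at 6036475, 87 bp upstream of the TSS. The thresholded signal was 28984, rank 57. The replicate signals were 7277.4, 6492.5 and 15118 in replicates 1, 2 and 3, at ranks 68, 54 and 50. Over the list medians these were 131, 113 and 116, a mean of 120 ± 9.45 (SD, n = 3). No TSS of another gene was within 500 bp of this summit, so unlike at SREBP the promoter belonged to 1 annotated gene. The upstream neighbour CG14591, on the same strand, ends 169 bp before the SCAP start.

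SREBP stood above SCAP by nearly the same factor in every list. The ratio of the SREBP signal to the SCAP signal was 1.73, 1.8 and 1.72 in replicates 1, 2 and 3, a mean of 1.75 ± 0.041 (SD, n = 3), and 1.74 in the thresholded list. The multiples of the list median did not overlap between the 2 promoters: the lowest at SREBP was 199 and the highest at SCAP was 131. Since SREBP was chosen for its height, this gap is a description only. Both summits were intergenic, 84 and 87 bp upstream of the start, and both peaks were about 3 times as wide as the list median. Peaks of similar rank were also wide: the 3 peaks on each side of SREBP were 1183 to 1581 bp wide, and those beside SCAP 811 to 1309 bp. Their distances to the nearest start varied. The summits beside SREBP were 40 to 156 bp upstream, with only that at CG12091 and pns, at 86 bp, close to the SREBP distance. The summits beside SCAP ran from 58 bp upstream of the nearest start to 2 bp past it.

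SCAP carried 2 weaker summits inside the gene. The first, at 6035528 in the 5′ UTR, 860 bp past the start, had a thresholded signal of 194.1 and rank 5430. Its peak, from 6035347 to 6035872, overlapped the far stronger promoter peak, which began at 6035769. This summit ranked 4297, 5209 and 4741 in the replicates, with signals of 56.33, 49.63 and 122. The second, at 6033398 in an intron, 2990 bp past the start, had a thresholded signal of 164.3 and rank 6398, and ranked 6711, 4997 and 7377. Both were found in all 3 replicates and were below or near the median of their lists, at 0.938 ± 0.0728 and 0.728 ± 0.15 times it (SD, n = 3).

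S1P and S2P, the proteases that release SREBP, had no thresholded summit. S1P (FBgn0037105) lies on chr3L from 21613797 to 21617376 on the minus strand and faces CG11307, whose start is 247 bp away. Neither the pooled list nor the lists of replicates 2 and 3 had any entry in the gene or its flanks. Replicate 1 had 1 entry, 211 bp upstream of the start and so between the pair of starts, with a signal of 68.41 and rank 3372. An entry of that rank in 1 replicate was absent from the 30000 entries of each of the other 2 replicates. The nearest thresholded summit outside the window was 17161 bp upstream.

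S2P (FBgn0033656) lies on chr2R from 11842103 to 11844240 on the minus strand, with the start of CG43190 138 bp away on the plus strand. The pooled list had an entry 11 bp past the S2P start, with a signal of 54.94 and rank 18245. Replicate 3 had the same position at rank 9907 with a signal of 60.2, past the first 8708. Replicates 1 and 2 had 1 entry each in the window, 1597 and 1865 bp upstream of the start, at ranks 28565 and 18359. The nearest thresholded summit outside the window lay 2230 bp past the end of the gene, with a signal of 210.8, so a slightly wider window would have taken it in.

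ACC (FBgn0033246), which makes malonyl-CoA for fatty acid synthesis, lies on chr2R from 7974115 to 7991862 on the minus strand and has 4 annotated start sites. The strongest of its 3 thresholded summits, at 7989835, had a signal of 323 and rank 2850. Its replicate signals were 78.38, 77.6 and 163.4 in replicates 1, 2 and 3, at ranks 2795, 2888 and 3215. This was 1.34 ± 0.0808 times the list median (SD, n = 3), so the replicates were close. The summit was 121 bp upstream of an internal ACC start. It was also 24 bp from an internal start of Nup44A, a nuclear pore gene nested in ACC on the opposite strand, and lay in the Nup44A 5′ UTR. The summit was thus nearer to a start of Nup44A than to one of ACC.

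The other ACC summits were in introns. The summit at 7984257 was 194 bp upstream of another internal start, with no start of another gene within 500 bp. Its thresholded signal was 250.1, rank 4076. It had signals of 58.91, 61.68 and 135.2 and ranks of 4061, 3944 and 4184 in replicates 1, 2 and 3, or 1.06 ± 0.0216 times the list median (SD, n = 3). Among the 8 summits with a value in all 3 replicates, this one had the smallest SD relative to its mean. The summit at 7987885, 648 bp upstream of the nearest ACC start, was weaker and more spread. Its thresholded signal was 185.9, and its ranks were 4516, 6060 and 6803. No thresholded summit lay at the outermost ACC start: replicate 1 had an entry 26 bp upstream of it at rank 20089, with a signal of 13.94.

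The gap between ACC and the promoters of SREBP and SCAP was large in every list, while S1P and S2P had no thresholded summit to set beside it. The SREBP promoter signal was 161, 150 and 159 times that of the strongest ACC summit in replicates 1, 2 and 3, a mean of 157 ± 5.7 (SD, n = 3). For SCAP the ratios were 92.9, 83.7 and 92.5, a mean of 89.7 ± 5.2 (SD, n = 3).

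FASN1 (FBgn0283427), the multifunctional enzyme that builds palmitate, lies on chr2L from 3056598 to 3068177 on the plus strand, with 2 annotated starts. The end of its paralogue FASN2 is 455 bp upstream. Its promoter summit at 3056588, 10 bp upstream of the start, had a thresholded signal of 181.8 and rank 5796. Replicate 2 had it at rank 2023 with a signal of 97.2, and replicate 3 at rank 7077 with 84.03. Replicate 1 had no entry within 100 bp, and its nearest entry was 168 bp upstream of the start at rank 13798 with a signal of 18.82. The replicates thus differed more here than at the SREBP, SCAP and ACC promoters: 1.7 times the list median in replicate 2, 0.643 times in replicate 3 and no match in replicate 1.

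The second FASN1 summit, at 3059183 in an intron 2585 bp past the start, was the weakest of the 9. Its thresholded signal was 150.1, rank 6960, with a −log10 q value of 2.968, while the other 8 summits had the list maximum of 4.127. It ranked 8020, 12819 and 6725 in replicates 1, 2 and 3, so replicate 2 placed it past its 8708 strongest entries. Ordered by multiples of the list median, SREBP, SCAP and the 2 stronger ACC summits stood apart from each other with no overlap of replicate values. The FASN1 promoter, with a value in 2 replicates only, had 1 above and 1 below both ACC summits. The remaining summits each overlapped the next in order, with replicate values of 0.867 to 1.01 for the SCAP 5′ UTR summit, 0.669 to 0.97 for the ACC summit at 7987885, 0.618 to 0.898 for the SCAP intron summit and 0.381 to 0.677 for the FASN1 intron summit. The first and last of these did not overlap.

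**Figure D2:**
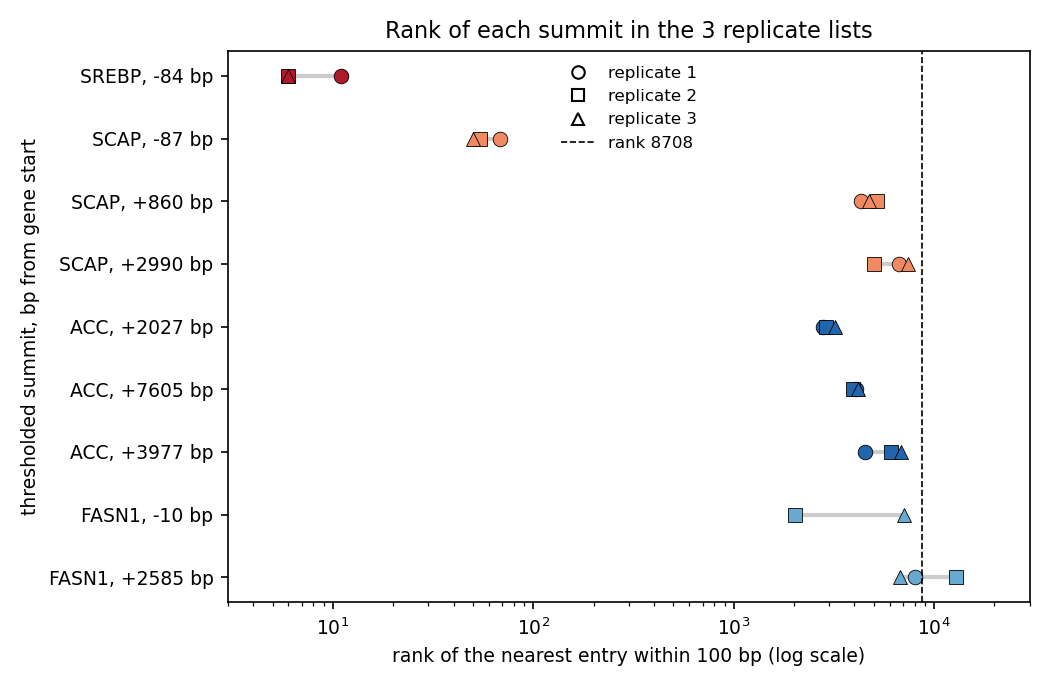
Rank (horizontal axis, log scale) of the entry nearest to each of the 9 thresholded summits, within 100 bp, in the lists of replicates 1 (circles), 2 (squares) and 3 (triangles); rows give the gene and the distance from its annotated start in bp, and the dashed line is rank 8708. SREBP stays at ranks 6 to 11 and SCAP at 50 to 68, while the FASN1 promoter has no replicate 1 point and the FASN1 intron summit crosses the line in replicate 2.

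**Figure D3:**
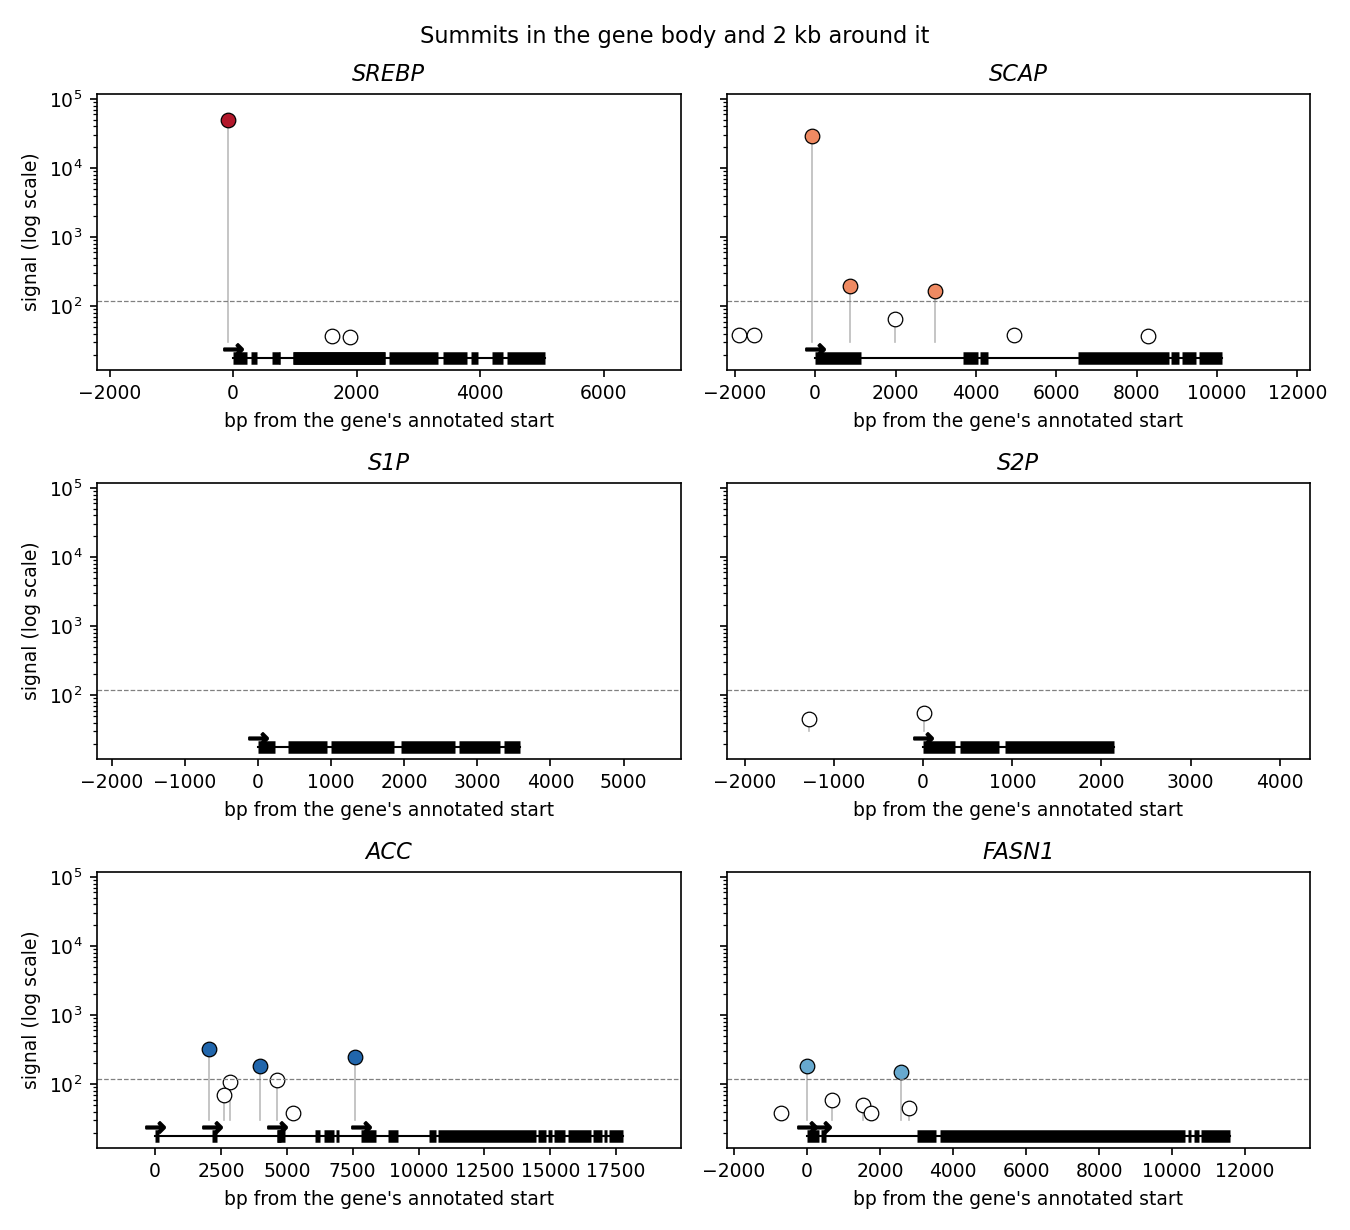
Signal in the pooled list (vertical axis, log scale) against distance from the annotated start of each gene in bp (horizontal axis, in the direction of the gene), for summits in the gene and 2 kb around it. Filled points are thresholded summits, open points are pooled entries below the threshold, the dashed line is the signal of the last thresholded peak (118.9), black boxes are exons and arrows are start sites. SREBP and SCAP each have a tall summit just before the start, S1P has no point, and those of S2P are open.

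Sequence at the summit also differed among these promoters. Of the 4 genes with a promoter summit, 2 (SREBP and SCAP) had GAACCAG or GAACTAG within 100 bp of one. The share was 473 of all 5985 protein-coding genes with a promoter summit (7.9%). Counted by summit and not by gene, it was 361 of all 5510 thresholded promoter summits (6.55%). Since this sequence is common among strong peaks, with 79 of the 100 strongest holding it, and SREBP was chosen for its height, the count is a description. At SREBP the 10-base inverted repeat ran from 19 to 10 bp upstream of the start, and at SCAP from 34 to 25 bp upstream. At SREBP the 7 bases read on the strand of the gene alone, and at SCAP they read on both strands. The repeat was 65 bp from the SREBP summit and 53 bp from the SCAP summit, on the side of the start in both.

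The inverted repeat was rare elsewhere. It lay within 100 bp of 88 of the 5510 promoter summits (1.6%), whose median rank was 93.5, and 48 of the 88 were among the 100 strongest. The median distance from repeat to summit over the 88 was 20 bp, with quartiles of 8 and 47.25 bp, and 17 of the 88 had a repeat farther from the summit than SCAP did. Both SREBP and SCAP were thus past the upper quartile of that distance. The repeat was centred 0 to 60 bp upstream of the nearest start in 36 of the 88 (40.9%), as it was in SREBP and SCAP.

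CAGCTG was the other sequence that both promoters held. It was 32 bp from the summit at SREBP, 52 to 47 bp upstream of the start, and 25 bp from the summit at SCAP, 62 to 57 bp upstream, so in both it lay between the summit and the repeat. This E-box was within 100 bp of 16.2% of all thresholded promoter summits. It lay near 15 of the 88 summits with the repeat (17%) and near 879 of the other 5422 (16.2%), so the pair of sequences met about as often as CAGCTG met any promoter summit.

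The strongest ACC summit held CAGCTG 1 bp from the summit and GGTCACAC 50 bp from it, in 16.2% and 9.6% of promoter summits. None of the sequences sought was within 100 bp of the FASN1 promoter summit. No thresholded summit at these genes held TATCGATA, the DNA replication-related element, which was within 100 bp of 11.4% of promoter summits. None held CACGTG (3.12%), its longer form ATCACGTGA (0.0907%) or TCACNCCAC, a sterol regulatory element form (0.399%). Every sequence was sought on both strands, and ATCACGTGA contains CACGTG. These matches describe letters in a window and not the binding of any factor.

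Searching 500 bp on each side of every start gave a further view that did not depend on a summit. GAACCAG or GAACTAG was near a start of 18% of protein-coding genes, and the inverted repeat near 1.2%. S1P had the 7 bases centred 358 bp upstream of its start and ACC had them 54 bp past a start, while S2P and FASN1 had none. Neither S1P nor ACC had the inverted repeat there. SREBP and SCAP were the only members with it. Of the sequences missing at the summits, CACGTG lay 192 bp past the SREBP start and TCACNCCAC 300 bp past an ACC start, near a start of 15.4% and 2.27% of protein-coding genes. TATCGATA was near a start of none of the 6 members, against 13% of protein-coding genes. CAGCTG was near a start of every member except S2P, and of 47.4% of protein-coding genes.

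By rank the SREBP peak lay between the promoter of Rilpl, rank 5 with a signal of 55164, and that of Dph1, a diphthamide synthesis enzyme gene, rank 7 with 50212. The next peaks outward were CG10366 with PCNA2 (rank 4, 55473) and Polr1B, an RNA polymerase I subunit gene (rank 8, 48903). They were followed by CG12091 with pns (rank 3, 63950) and Axn with RpS28a (rank 9, 48442). Likeness here is only the distance in rank over the 8708 thresholded peaks. In replicates 1, 2 and 3 these 6 peaks ranked between 1 and 9, and SREBP at 11, 6 and 6. The peaks around SCAP were chosen after its rank was seen. Above it were Dip-C with pps and a small RNA gene (rank 54), Sil1 (rank 55) and CG32195 with CG7341 (rank 56). Below it were Trm7-32 with CG18213 (rank 58), Lrr47 with the fatty acid transport protein gene Fatp1 (rank 59) and Mul1 (rank 60). Their signals ran from 28204 to 29088, with SCAP at 28984.

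Other genes of lipid synthesis, SREBP control and growth signalling were counted in 8 lists. The share of genes with a promoter summit was at or above 60% in each, beside 42.9% of all protein-coding genes, and the median signal of the genes with a summit ran from 246.8 to 1681, beside 314.6 over all such genes. Signals in the following paragraphs are those of the thresholded list, and no list was tested.

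In the fatty acid list of 20 genes, which includes ACC and FASN1, 12 had a promoter summit (60%), with a median signal of 260.8. The highest was Acsl, a long-chain acyl-CoA synthetase, with 1281.5 (rank 441), then the elongase Baldspot with 1060.1 (rank 528), which held GAACCAG or GAACTAG. The ketoacyl-CoA reductase gene spidey had 519 (shared with dpr14) and the citrate carrier gene sea had 455.7. ATP citrate lyase (ATPCL) and the acyl-CoA synthetase bgm were among the 8 without a promoter summit. ACC, with 323, came next after sea, and FASN1, with 181.8, was among the lowest of the 12.

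The list drawn up for phosphatidylethanolamine and phosphatidylcholine synthesis had the highest median of the 8 lists, with 4 high members. Of 7 genes, 6 had a promoter summit, with a median signal of 1681, and 4 were among the 1000 strongest peaks, where 8.07% of all protein-coding genes had such a peak. Pect, which makes CDP-ethanolamine, had 4329.8 (rank 215, and 229, 204 and 210 in replicates 1, 2 and 3). Pcyt1, which makes CDP-choline for phosphatidylcholine, had 2901.5 (rank 255, shared with asRNA:CR45813) and held the 10-base inverted repeat. The ethanolamine kinase eas had 2352.1 (rank 280). The CDP-diacylglycerol synthase Cds, which makes neither of these 2 lipids itself but was counted in the list, had 1009.6 (rank 555, shared with Uba2). The other members were low: bbc had 282.8 and Pisd, which shared its promoter with Atg6, had 260.5, both below the median of all genes with a summit, and Pcyt2 had no promoter summit. All of these lay below the SCAP promoter, at 28984.

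All 7 mevalonate genes, which make isoprenoids in flies, had a promoter summit, with a median of 324.1. The summit lay 498 bp from the start at Mvk (shared with CG33672 and Iswi) and 296 bp at Fpps (shared with CG7745). Within 250 bp of a start, 71.4% of this list had a summit, beside 38% of all protein-coding genes. The isomerase Idi had 2047.4 (rank 306, shared with AP-2sigma), the kinase Pmvk 640.1 and the synthase Hmgs 494.9 (shared with Vha44). In this list 6 of 7 genes shared their promoter region with another gene. Of all 13945 protein-coding genes, 7219 did not share theirs. A promoter summit was found at 1964 of these 7219 genes, beside 5985 of all 13945 (42.9%). Genes with an unshared promoter region thus had a summit less often. The 42.9% set beside each list is not matched for sharing. Of 15 triglyceride genes 12 had a summit, with a median of 307.4. They were led by the phosphatidate phosphatase Lpin with 1005.7 (rank 560) and Seipin with 611 (shared with Tsp3A). The acyltransferase mdy had 434.3 and Agpat1 421, while Dgat2 and Jabba had none. GAACCAG or GAACTAG lay near a promoter summit of 2 of the 12 (16.7%), at genes with signals of 351.8 and 329.5. The share was 7.9% of all protein-coding genes with a promoter summit.

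The COPII coat carries SCAP and SREBP out of the endoplasmic reticulum, and 7 of its 8 genes had a promoter summit, with a median of 269.9. Sar1, the GTPase that starts the coat, had 1757.8 (rank 344, and 334, 354 and 342 in the replicates). The Sec12 gene CG9175 had 462.5, and the cargo adaptors Sec24CD and Sec24AB had 386.5 and 269.9. Sec31 had no promoter summit. Among 7 genes of SREBP turnover or alternative cleavage, 6 had a summit, with a median of 246.8. The ubiquitin ligase sip3 had 1026.2 (rank 543, shared with betaGlu), followed by Der-2 with 316.8, the chaperone Hsc70-3 with 275.1 and Ubc7 with 218.5 (shared with SMC3). The F-box gene ago had none.

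In the list of 15 TOR and insulin signalling genes 12 had a promoter summit, with a median of 317.9. The kinase Akt had 8845.5 (rank 164, shared with Mhcl), AMPKalpha 756.3, the insulin receptor InR 485.5 and the GTPase Rheb 463.8 (shared with CG2931), while chico was among the 3 with none. All 10 genes listed for transcriptional control of sugar and lipid metabolism had a summit, with a median of 504.1. The nuclear receptor ERR had 26268 (rank 72, and 59, 83 and 72 in the replicates), in a promoter shared with Atg18a and without GAACCAG or GAACTAG. Crtc had 953.8, Hr96 878.3 (shared with EMC6) and bigmax 581.4 (shared with Hmu). Outside the members themselves, ERR was the only gene of the 8 lists among the 100 strongest summits, and Pcyt1 the only gene with the inverted repeat. Over all 13945 protein-coding genes, 153 (1.1%) had 1 of the 100 strongest summits and 131 had the repeat at a promoter summit. Nothing is therefore read from either count.

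**Figure D4:**
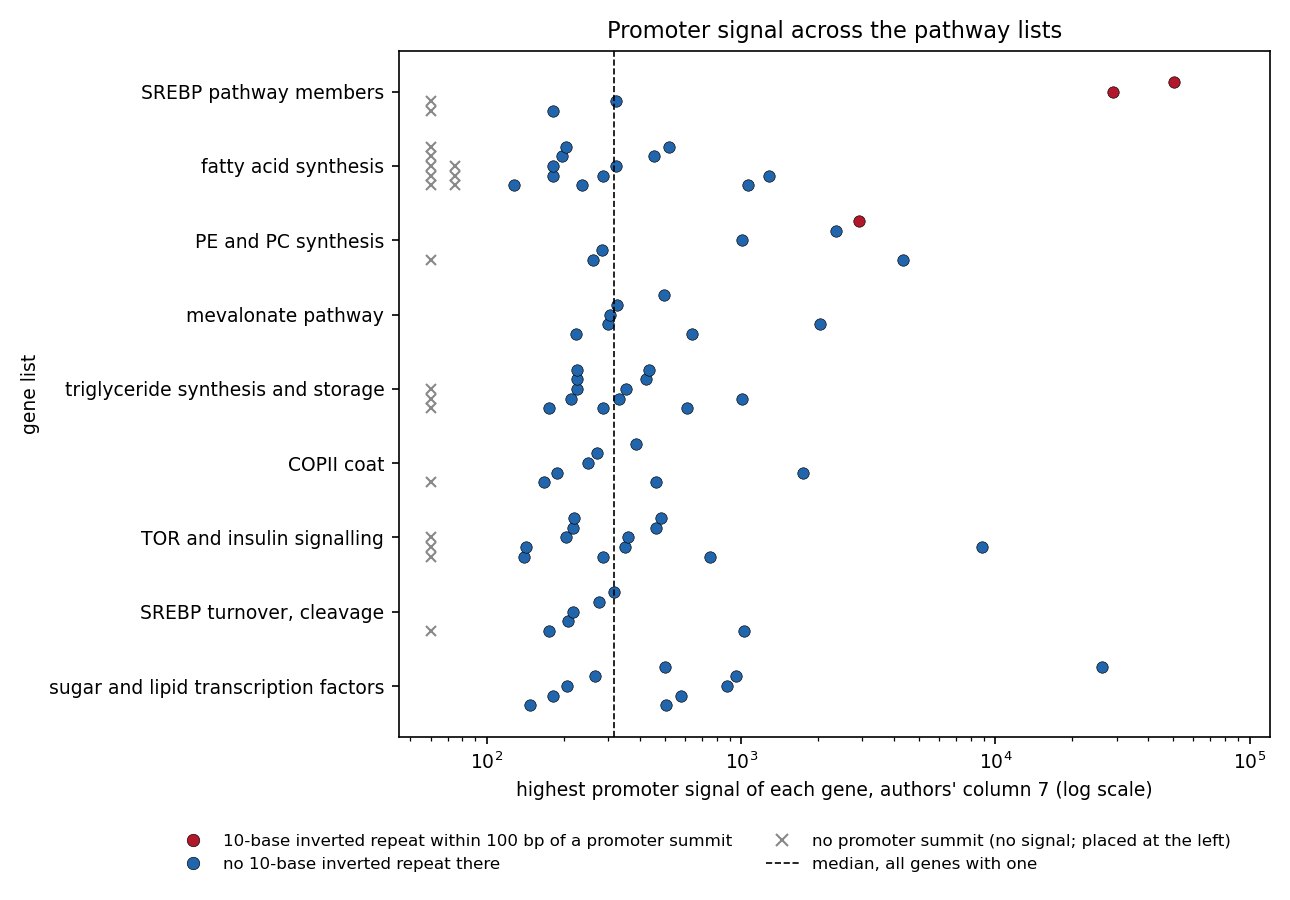
Highest promoter signal of each gene in the thresholded list (horizontal axis, authors' column 7, log scale) for the 6 members and the 8 other lists (rows). Each point is a gene, red where the 10-base inverted repeat lies within 100 bp of a promoter summit; crosses are genes without a promoter summit, placed at the left without a value, and the dashed line is the median of all genes with one, 314.6. SREBP, SCAP and ERR have the highest signals, followed by Akt at 8845.5 and Pect at 4329.8.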

How the data were processed

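Anti-GFP ChIP-seq was done on 3 biological replicates, which formed 1 group. The labels do not say whether they came from separate embryo collections. The authors deposited narrowPeak lists: per the deposited descriptions, each replicate list compares a replicate with a control alignment that the replicates share, and the pooled and thresholded lists combine the 3 replicates. Column 7 is the signal as deposited by the authors. The deposited −log10 q value is capped, with 6701 of 8708 thresholded peaks at 4.127, so peaks were ranked by signal. The deposited summit position is the other value used. The aligner is not given in the sources used here, nor the peak caller, their versions or the threshold for reproducible rank. Taken by signal, the first 8708 entries of the pooled list are the thresholded peaks.

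Coordinates are dm6, counted from 1. Genes and starts come from Ensembl 115 annotation, bases from the NCBI RefSeq Release 6 assembly. The dm3 lists were not used, since no coordinates were converted. A promoter summit lies within 500 bp of any annotated start, a gene window adds 2000 bp on each side, and a replicate supports a summit with an entry within 100 bp among its 8708 strongest. Motifs were sought within 100 bp of a summit. Of the listed names, 91 were matched by symbol, 4 by synonym and 2 (sc2 and Ptdss1) not at all. A gene counts as sharing a promoter where another start lies within 500 bp of its summit, and a promoter region where another start lies within 1000 bp of its own.

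Named genes were the 6 members, genes sharing their summits, the 3 peaks on each side of SREBP by rank and, per list, up to 4 genes with the highest promoter signal and up to 2 without a summit in alphabetical order. The 3 peaks on each side of SCAP were added after their values were seen, as were bbc, Pisd, Mvk and Fpps. Some genes that this rule would name are not reported here. The members and lists were chosen with earlier results of these data known. With 1 group no test was made, and means and SDs are over the 3 replicate lists. The steps were tested on simulated data with planted summits. Alternatives were other windows and distances, a stronger part of the list, the pooled entries, other rankings and leaving out each replicate. Python 3.11.15, numpy 2.4.6 and matplotlib 3.10.9 were used.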

Additional observations from a re-analysis of the deposited data

How the results depend on the processing

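Of 87 alternative values, 77 stayed within 1.5 times the reported value and 10 moved further. The count of thresholded summits in the gene windows was 9, 14 with a window of 5000 bp, 4 in the stronger 50% of the list and 27 over all pooled entries. The rank of the SREBP promoter was 6, 11 in the list of replicate 1, and 3351 when ranked by the q value, which is capped. Both promoter matches to GAACCAG or GAACTAG were lost, leaving 0, when a match had to be within 50 bp of the summit. In the stronger 50% of the list the share with a promoter summit was 35% for fatty acid synthesis, 46.7% for triglyceride genes, 46.7% for TOR and insulin signalling and 42.9% for SREBP turnover, beside 29.2% of all protein-coding genes. That setting keeps fewer peaks by construction. With each replicate left out in turn, and a summit required in both others, 3 to 4 members kept a promoter summit. No share of all protein-coding genes is given for these settings. With them 7 to 8 summits stayed in the windows, and the SREBP rank averaged over the remaining lists was 6 to 8.5. No paired analysis was possible because all samples form 1 group. The lists hold no read counts, so depth, counting error and the level at the genes without an entry cannot be given, and a gene without a summit is below the threshold of these lists, not shown to be unbound. Peaks in shared promoters cannot be assigned to 1 gene, and no list from an untagged line was used here.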
